A study of Mus musculus with 6 samples.

Results

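BAF complexes are chromatin remodellers of the SWI/SNF family, which use ATP to slide or evict nucleosomes, and the form found in mouse embryonic stem (ES) cells is called esBAF. Transcripts of 10 BAF subunit genes were taken by symbol from a table of 23420 symbols, and 10 of 10 were found and passed the filter on low counts. They are Smarca4, Smarcb1, Smarcc1, Smarcd1, Smarce1, Arid1a, Arid1b, Dpf2, Actl6a and Brd9. One of them, Brd9, belongs to a related, non-canonical complex, so the list is wider than esBAF in the strict sense. The ES cells had been transduced, stably, with a lentivirus for KBP(KK/RR), described in the labels as a stable mutant (replicates 4, 5 and 6), or wild-type KBP (replicates 1, 2 and 3), and were grown under self-renewal conditions. KBP is a kinesin-binding protein. Both groups carry a KBP virus, and the design has no group without one. The labels give neither the parental ES line, the number of clones, nor whether replicates are separate cultures, so p-values measure only the spread between these libraries.

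A BAF complex is built around a single ATPase, SMARCA4 (also called BRG1) or its paralogue SMARCA2 (BRM). SMARCB1, SMARCC, SMARCD and SMARCE1 subunits form its core, an ARID1 subunit and a DPF subunit mark the canonical form, and actin-related proteins bind the ATPase. In mouse ES cells SMARCA4 and SMARCC1 predominate over SMARCA2 and SMARCC2, SMARCA4 is needed for self-renewal, and several subunits are exchanged when cells become neurons.

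Total counts per library ran from 24300832 to 29863560 in KBP(KK/RR) cells and from 24131743 to 32160411 in wild-type KBP cells, and each of the 10 genes had 883 to 23721 counts in a library. All 10 ES cell markers listed, Pou5f1, Sox2 and Nanog among them, passed the filter, and they summed to 6737 to 6978 CPM in KBP(KK/RR) and 6881 to 6982 CPM in wild-type KBP cells (CPM is the usual count scaled by the library total). Of these 10, 4 had a positive and 6 a negative log2 fold change, Nanog among the positive (0.096, edgeR adjusted p = 0.191). Only the naive-state factor gene Tfcp2l1 was called, and it fell (log2 fold change -0.29, edgeR adjusted p = 8.28e-04). Its longest coding transcript has 9269 bases. With a trend on transcript length and GC content removed from each library, Tfcp2l1 was at -0.19 (edgeR adjusted p = 8.20e-05). In that setting 2 of the 10 were called lower and 0 higher. The 7 primitive endoderm markers summed to 15.9 to 18.8 CPM in KBP(KK/RR) and 18.3 to 21.7 CPM in wild-type KBP cells, and Pdgfra among them fell (-0.68, edgeR adjusted p = 0.0342). Its level was low, at 1.46 ± 0.0697 CPM in KBP(KK/RR) and 2.32 ± 0.356 CPM in wild-type KBP cells. The 7 neural markers summed to 182 to 191 CPM in KBP(KK/RR) and 178 to 183 CPM in wild-type KBP cells. The 7 fibroblast or feeder markers summed to 15.2 to 16.2 CPM in KBP(KK/RR) and 15.3 to 17.3 CPM in wild-type KBP cells. Of these 7, Col1a1 (8.22 ± 0.534 CPM in KBP(KK/RR) and 9.34 ± 0.897 CPM in wild-type KBP cells), Thy1, Col1a2 and Col3a1 passed the filter and had counts in each library, as did Dcn below it, while Postn was at 0 in 1 and Lum at 0 in 5 of 6 libraries. The part of these markers in the results was not tested. The KBP gene (2510003E04Rik in the table) rose, at 56.6 ± 2.88 CPM in KBP(KK/RR) and 48.3 ± 1.30 CPM in wild-type KBP cells (SD, n = 3 each, log2 fold change 0.23, edgeR adjusted p = 0.0133), and whether vector transcripts enter that count was not tested.

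Promoter windows show what kind of start sites these genes have. RefSeq windows on GRCm38.p6, from 250 bases before to 50 bases after a start, were found for 9 of the 10 genes (11 windows, with 2 each for Arid1a and Brd9). Smarce1 had no entry. The 11 windows held a median of 33 CpG dinucleotides and 71.3% G or C, against 7 and 52.7% over all 32851 windows in the table. Both strands were searched for 3 motifs, chosen after the sequences had been read. The core letters of the NRF1 motif (GCGCATGC, or GCATGCGC on the other strand) occur in Smarca4, Smarcb1 and Smarcc1 and in 2.71% of all windows. Those of the ETS motif (CCGGAAG or CTTCCGG) occur in Smarcc1 and Brd9 and in 8.86% of all windows, and those of the YY1 motif (AAGATGGC or GCCATCTT) in Smarcd1 and in 2.75% of all windows. The motifs share no bases in these windows, and a match describes letters, not binding. The percentages over all windows were not matched for CpG content, so they give no measure of enrichment in these genes. The windows printed are those of the ATPase gene and of the core genes with an NRF1 match, and that of Actl6a, the member with the largest positive difference, which holds none of the motifs. Capitals mark motif letters, and each sequence runs 5′ to 3′ on the gene's strand (Smarca4 at chr9:21615919-21616218, plus strand; Smarcb1 at chr10:75921565-75921864, minus strand; Smarcc1 at chr9:110131774-110132073, plus strand; Actl6a at chr3:32708296-32708595, plus strand).
Smarca4: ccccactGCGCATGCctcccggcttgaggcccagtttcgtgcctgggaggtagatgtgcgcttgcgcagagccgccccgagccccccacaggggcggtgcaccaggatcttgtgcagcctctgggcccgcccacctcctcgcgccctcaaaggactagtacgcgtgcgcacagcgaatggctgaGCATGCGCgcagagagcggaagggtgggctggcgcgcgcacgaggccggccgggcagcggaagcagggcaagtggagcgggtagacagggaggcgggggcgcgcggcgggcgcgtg
Smarcb1: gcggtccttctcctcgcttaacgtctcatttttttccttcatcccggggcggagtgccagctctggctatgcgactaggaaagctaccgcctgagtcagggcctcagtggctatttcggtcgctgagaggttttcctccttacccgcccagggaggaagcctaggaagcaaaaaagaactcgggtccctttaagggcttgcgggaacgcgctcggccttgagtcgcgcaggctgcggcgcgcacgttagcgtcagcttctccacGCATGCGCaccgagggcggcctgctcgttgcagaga
Smarcc1: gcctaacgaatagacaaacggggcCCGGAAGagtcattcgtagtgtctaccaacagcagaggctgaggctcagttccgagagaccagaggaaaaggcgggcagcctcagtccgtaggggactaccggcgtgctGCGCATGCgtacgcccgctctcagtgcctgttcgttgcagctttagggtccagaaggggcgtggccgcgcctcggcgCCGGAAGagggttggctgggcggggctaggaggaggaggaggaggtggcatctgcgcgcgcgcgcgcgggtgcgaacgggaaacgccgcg
Actl6a: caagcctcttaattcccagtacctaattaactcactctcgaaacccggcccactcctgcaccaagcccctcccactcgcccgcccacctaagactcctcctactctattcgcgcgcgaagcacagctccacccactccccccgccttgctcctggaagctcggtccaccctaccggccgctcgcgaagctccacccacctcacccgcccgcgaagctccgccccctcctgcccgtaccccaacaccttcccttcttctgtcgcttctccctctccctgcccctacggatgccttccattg

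Counted from the start, the NRF1 letters begin at -243 and -66 in Smarca4, at -117 in Smarcc1 and at 15 in Smarcb1, and the ETS letters of Smarcc1 at -226 and -40. For Smarcc1 and Actl6a this RefSeq start lies downstream of the start of the GENCODE gene. The windows hold 33 CpG dinucleotides in Smarca4, 27 in Smarcb1, 33 in Smarcc1 and 21 in Actl6a.

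Levels differed more between subunits than between the groups. Scaled by the length of the longest coding transcript (GENCODE M21), Actl6a was the most abundant of the 10, with a level of 96.4 ± 0.0936 CPM per kb in KBP(KK/RR) and 88.9 ± 2.57 CPM per kb in wild-type KBP cells (SD, n = 3 each). Arid1b was the least abundant, with a level of 3.48 ± 0.0327 CPM per kb in KBP(KK/RR) and 3.75 ± 0.108 CPM per kb in wild-type KBP cells. Among 14218 tested genes with a length, Actl6a stood at the 94.6th percentile and Arid1b at the 38.0th percentile. In KBP(KK/RR) cells the levels per kb of the core genes were 83.1 ± 3.63 for Smarcb1, 80.8 ± 2.80 for Smarcc1, 77.3 ± 1.70 for Smarcd1 and 43.0 ± 0.758 CPM per kb for Smarce1. Arid1a was at 74.0 ± 7.02, Smarca4 at 60.6 ± 1.72, Dpf2 at 41.6 ± 1.27 and Brd9 at 15.0 ± 0.776 CPM per kb in the same cells. The ranges of Smarcb1 and Smarcc1 overlapped, as did those of Smarce1 and Dpf2, and that of Arid1a (67.1 to 81.1 CPM per kb) overlapped those of Smarcb1, Smarcc1 and Smarcd1. In wild-type KBP cells Arid1a ranked 2nd at 88.0 ± 8.24 CPM per kb, against 5th in KBP(KK/RR) cells, and the others kept their order. Its range in wild-type KBP cells overlapped those of Actl6a, Smarcb1, Smarcc1 and Smarcd1. The order of the abundant genes rests on the length used. Per kb of all annotated exons, Smarcd1 came 1st at 63.5, Actl6a 5th at 49.9 and Smarcb1 8th at 17.4 CPM per kb in KBP(KK/RR) cells, while Brd9 (5.25) and Arid1b (3.13) stayed last.

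**Figure D1:**
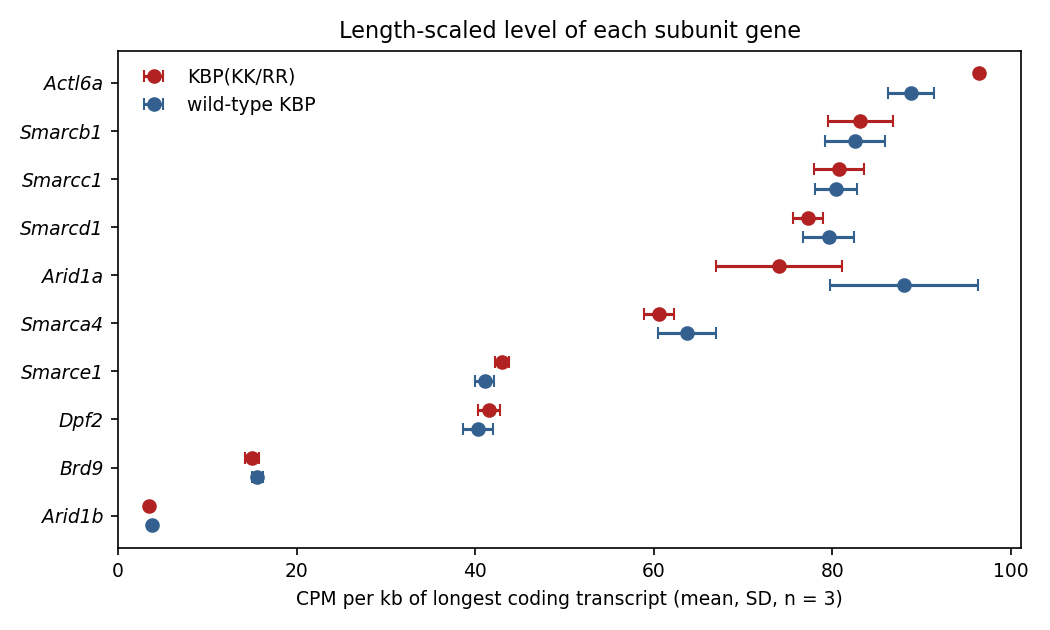
Level of each of the 10 subunit genes in CPM per kb of the longest coding transcript; points are means and bars are SD over 3 libraries, KBP(KK/RR) above wild-type KBP. Actl6a is highest at 96.4 and 88.9 CPM per kb, Arid1b lowest at 3.48 and 3.75, and Arid1a has the widest bars.

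None of the 10 subunit genes passed the test between KBP(KK/RR) and wild-type KBP cells. In edgeR's quasi-likelihood test 0 of 10 were called higher and 0 lower at an adjusted p under 0.05, where 3.12% of the 14340 tested genes were called (1.05% higher and 2.07% lower, or 151 and 297 genes, and 235 and 205 genes with upper-quartile factors). DESeq2 and limma-voom also called 0 of the 10. Before adjustment, 2 members had a p under 0.05, where 18.6% of all tested genes did: Actl6a on the higher side (8.32% of all tested genes) and Arid1b on the lower side (10.3%). In 3 members the groups did not overlap, where this held for 22.3% of all tested genes: Actl6a and Smarce1 were higher (11.8% of all tested genes) and Arid1b lower (10.5%). Both counts lie near their background. The median log2 fold change (KBP(KK/RR) minus wild-type KBP) of the 10 was -0.018, with 5 positive and 5 negative, and that of all tested genes was -0.0022. For the 9 members other than Arid1a the 95% intervals of the fold lay between 0.863 and 1.15, and that of Arid1a ran from 0.705 to 1.003. These are levels in bulk RNA, in which fewer cells of a type and less RNA per cell cannot be told apart.

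**Figure D2:**
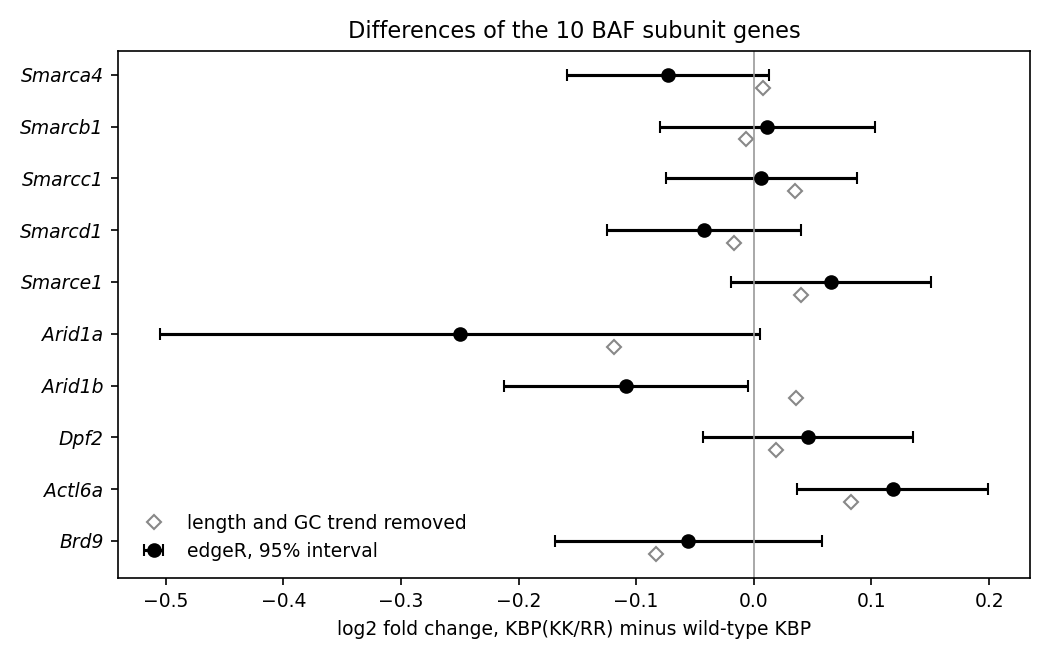
Log2 fold change, KBP(KK/RR) minus wild-type KBP, of each subunit gene with its 95% interval (edgeR), beside the value with a trend on transcript length and GC content removed from each library. No member was called, and Arid1a has the widest interval, from -0.51 to 0.0050. With the trend removed Smarcc1 and Brd9 lie further from 0 and the other members nearer, Smarca4, Smarcb1 and Arid1b with the sign changed.

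Smarca4, the ATPase that drives remodelling, had 393, 392 and 374 CPM in KBP(KK/RR), against 389, 401 and 429 CPM in wild-type KBP cells (here and below in the order of replicates 4, 5 and 6 and of replicates 1, 2 and 3). The groups overlapped through wild-type KBP replicate 1. This gave a log2 fold change of -0.073 (95% interval -0.16 to 0.013, edgeR adjusted p = 0.360), and 0.0082 with a trend on transcript length and GC content removed from each library.

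Among the core subunits, Smarcc1, a scaffold of the core, had 484, 453 and 462 CPM in KBP(KK/RR), against 451, 463 and 478 CPM in wild-type KBP cells. Low and high libraries were mixed across the groups, with a log2 fold change of 0.0065 (95% interval -0.075 to 0.088, edgeR adjusted p = 0.951). At its 5′ end 123 bases of annotated exon also belong to Dhx30 on the other strand, whose log2 fold change was -0.0092. Smarcb1, which contacts the nucleosome's acidic patch, had 133, 137 and 145 CPM in KBP(KK/RR), against 136, 132 and 143 CPM in wild-type KBP cells. The groups overlapped widely here too (log2 fold change 0.012, 95% interval -0.080 to 0.10, edgeR adjusted p = 0.918).

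Smarcd1, a core subunit that contacts transcription factors, had 249, 259 and 259 CPM in KBP(KK/RR), against 260.0, 256 and 274 CPM in wild-type KBP cells. KBP(KK/RR) replicate 4 was lowest and wild-type KBP replicate 3 highest, and the groups overlapped (log2 fold change -0.043, SE 0.040, edgeR adjusted p = 0.603). The HMG-box subunit gene Smarce1 had 127, 123 and 127 CPM in KBP(KK/RR), against 123, 120.3 and 117 CPM in wild-type KBP cells. KBP(KK/RR) replicate 5 was above wild-type KBP replicate 1 by less than 1 CPM, so the groups only just did not overlap, with a log2 fold change of 0.066 (SE 0.041, edgeR adjusted p = 0.412).

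Actl6a, the actin-related subunit BAF53A of proliferating cells, had the smallest p of the 10. It had 194, 194 and 194 CPM in KBP(KK/RR), against 181, 173 and 182 CPM in wild-type KBP cells, so every KBP(KK/RR) library was above every wild-type KBP library. The log2 fold change was 0.12 (SE 0.039, 95% interval 0.037 to 0.20), with an unadjusted p of 0.00633 in edgeR and an edgeR adjusted p = 0.104. Over the alternatives run the adjusted p was 0.0598 to 0.396. With the trend on transcript length and GC content removed, the log2 fold change was 0.083 (edgeR adjusted p = 0.114). The SD of 0.188 CPM among the KBP(KK/RR) libraries is smaller than the 2.63 CPM that counting error alone gives at this depth, so that closeness is no measure of precision. Actl6a lies on chromosome 3 from 32706298 to 32726973 (GRCm38, plus strand) and shares 452 of its 3886 exon bases with Mrpl47, a mitochondrial ribosomal protein gene on the other strand. Mrpl47 itself had 40.6, 37.3 and 40.2 CPM in KBP(KK/RR), against 36.3, 36.9 and 34.3 CPM in wild-type KBP cells, again with every KBP(KK/RR) library above the other group (log2 fold change 0.14, edgeR adjusted p = 0.176). Whether counting used strand is not known here, so reads over the shared bases cannot be assigned to either gene.

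Arid1b, the scarcer of the alternative ARID1 subunits, had 39.1, 39.4 and 39.8 CPM in KBP(KK/RR), against 41.4, 42.3 and 43.8 CPM in wild-type KBP cells. Every KBP(KK/RR) library was lower, with a log2 fold change of -0.11 (SE 0.050, unadjusted p = 0.0411, edgeR adjusted p = 0.245). Dpf2, a PHD-finger subunit that reads modified histone tails, had 133, 142 and 138 CPM in KBP(KK/RR), against 134, 128 and 139 CPM in wild-type KBP cells. Its groups overlapped, with a log2 fold change of 0.046 (SE 0.043, edgeR adjusted p = 0.605). Brd9, the bromodomain subunit of the non-canonical complex, had 36.2, 38.5 and 34.8 CPM in KBP(KK/RR), against 39.5, 37.2 and 36.8 CPM in wild-type KBP cells. These also overlapped (log2 fold change -0.056, SE 0.055, edgeR adjusted p = 0.623).

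**Figure D3:**
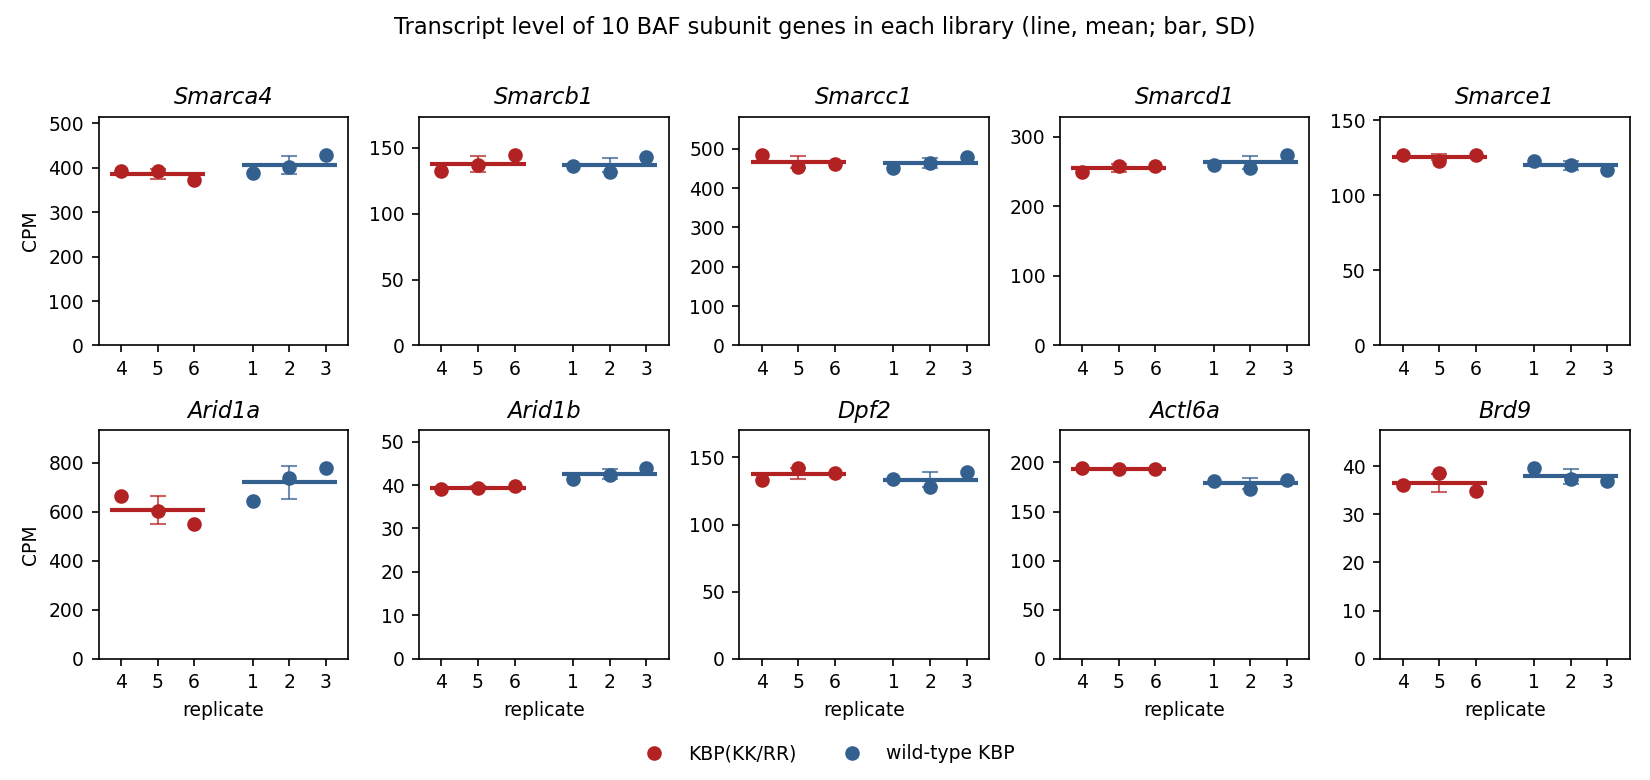
CPM of each subunit gene in every library, each panel with its own axis from 0; points are libraries, lines are group means and bars are SD, KBP(KK/RR) (replicates 4 to 6) left of wild-type KBP (replicates 1 to 3). Actl6a, Smarce1 and Arid1b have groups that do not overlap, and Arid1a spreads from 549 to 664 CPM in KBP(KK/RR) and from 646 to 777 CPM in wild-type KBP cells.

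Arid1a, the main ARID1 subunit and the member with the largest difference, had 664, 604 and 549 CPM in KBP(KK/RR), against 646, 739 and 777 CPM in wild-type KBP cells. The groups overlapped, since KBP(KK/RR) replicate 4 was above wild-type KBP replicate 1. Its log2 fold change was -0.25 (SE 0.10, unadjusted p = 0.0532, edgeR adjusted p = 0.278). Without wild-type KBP replicate 1 it was -0.32 and called lower (edgeR adjusted p = 0.0202), and with no filter on low counts it was -0.25 and called lower (edgeR adjusted p = 0.00582). Over the alternatives run the adjusted p was 0.00582 to 0.549.

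Replicates spread more for Arid1a than for the other members. Its biological coefficient of variation in edgeR was 8.63%, at the 97.4th percentile of the 5985 genes at or above 5 in mean log2 CPM, and those of the other 9 were 3.73% to 4.43%. The longest coding transcript of Arid1a has 8187 bases, and long transcripts as a class differed between libraries. For the 597 longest genes at that level (at least 7178 bases), the median log2 deviation from each gene's mean was 0.056, -0.097 and -0.15 in KBP(KK/RR) libraries and -0.0060, 0.11 and 0.095 in wild-type KBP libraries. Arid1a deviated by 0.012, -0.12 and -0.26 in KBP(KK/RR) libraries and by -0.028, 0.17 and 0.24 in wild-type KBP libraries. Both were lowest in KBP(KK/RR) replicate 6, then in replicate 5, and highest in wild-type KBP replicates 2 and 3. With a trend on transcript length and GC content removed from each library, the log2 fold change of Arid1a was -0.12 (edgeR adjusted p = 0.355). Arid1b, with a transcript of 11325 bases, deviated by -0.066, -0.056 and -0.039 in KBP(KK/RR) libraries and by 0.017, 0.047 and 0.097 in wild-type KBP libraries, lowest in KBP(KK/RR) replicate 4 and highest in wild-type KBP replicate 3. With the trend removed its log2 fold change was 0.036 (edgeR adjusted p = 0.745). The part of transcript length in these differences was not tested.

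A tilt with length ran through the wider family and through all genes. Of 77 tested subunit and remodeller genes, 22 had a transcript of at least 7000 bases, a bound chosen after the values were seen, and 22 of these had a negative log2 fold change (median -0.15). Of the 55 with shorter transcripts 21 were negative (median 0.0074). Over all tested genes with a length, 958 of 1219 at or above that bound were negative (median -0.11), and 6250 of 12999 below it (median 0.0054). Among genes at or above 5 in mean log2 CPM, the 2981 under 3376 bases had a median of 0.031 and the 2986 longer ones of -0.032. The 8 listed genes with a coefficient of variation over 8%, named after their values were seen, were Arid1a, Chd7, Bptf, Chd6, Ino80d, Chd9, Ep400 and Trrap, and their transcripts had 8187 bases or more. They were 8 of the 22 with at least 7000 bases. Others of the 22 spread less, such as Rsf1 (11124 bases, 4.48%), Chd3 (7261 bases, 3.77%) and Arid1b (11325 bases, 3.73%). Trrap, a scaffold of histone acetyltransferase complexes, had the widest spread of the 8, with 205, 162 and 148 CPM in KBP(KK/RR), against 188, 250.5 and 266 CPM in wild-type KBP cells (log2 fold change -0.45, edgeR adjusted p = 0.344). As for Arid1a, KBP(KK/RR) replicate 4 was above wild-type KBP replicate 1.

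**Figure D4:**
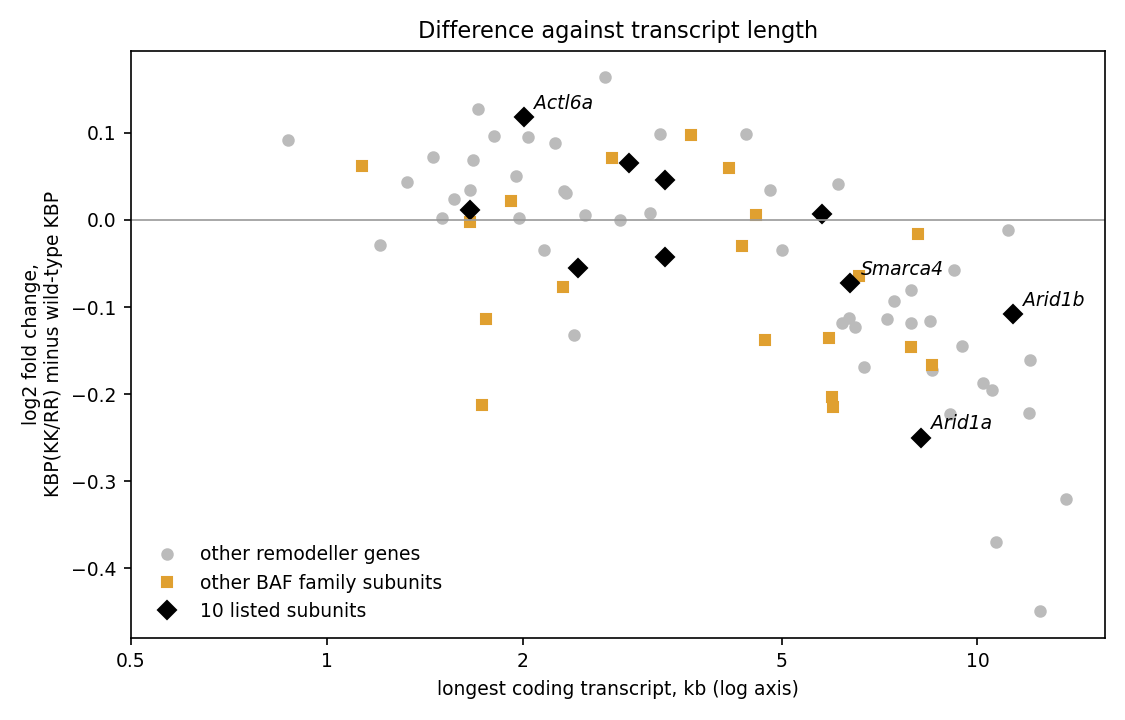
Log2 fold change, KBP(KK/RR) minus wild-type KBP, against the length of the longest coding transcript, for the 10 subunit genes, other BAF family subunits and other remodeller genes; each point is 1 gene. The 22 genes with transcripts of at least 7000 bases lie below 0, Arid1a and Arid1b among them.

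Paralogues are alternatives for a place in BAF complexes, except that Brd9 and Brd7 mark different complexes. The share a member held of its paralogues' summed level per kb was taken within each library. Smarca4 held 99.2% ± 0.0316 of the ATPase level in KBP(KK/RR) and 99.2% ± 0.130 in wild-type KBP cells, where Smarca2 measured 2.73 ± 0.187 CPM in KBP(KK/RR) and 2.96 ± 0.408 CPM in wild-type KBP cells (SD, n = 3 each, as below). Actl6a held 99.9% ± 0.0439 in KBP(KK/RR) and 99.9% ± 0.0307 in wild-type KBP cells beside Actl6b, the neuronal paralogue, which had 1 to 4 counts in each library. Smarcc1 held 90.2% ± 0.526 in KBP(KK/RR) and 90.2% ± 0.572 in wild-type KBP cells beside Smarcc2. Smarcd1 held 69.3% ± 0.815 in KBP(KK/RR) and 69.9% ± 0.792 in wild-type KBP cells beside Smarcd2 and Smarcd3. Arid1a held 95.5% ± 0.450 in KBP(KK/RR) and 95.9% ± 0.281 in wild-type KBP cells beside Arid1b. In these 5 groups the exact two-sided permutation p was 0.2 to 1.

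In 2 of the 7 paralogue groups the shares did not overlap (for the levels of single genes, not shares, this held for 22.3% of all tested genes). Dpf2 held 79.9, 79.2 and 80.8% in KBP(KK/RR), against 78.8, 78.3 and 78.9% in wild-type KBP cells, beside Dpf1 and Dpf3 (Dpf3 had 18 counts or fewer in each library). The difference was 1.33 percentage points. Brd9 held 36.3, 38.0 and 35.2% in KBP(KK/RR), against 40.5, 38.1 and 38.2% in wild-type KBP cells, beside Brd7 of the PBAF complex, a difference of -2.48 percentage points. For both the exact two-sided permutation p was 0.1, the smallest that 3 against 3 libraries can give, and 0.35 after Benjamini-Hochberg adjustment over the 7 groups.

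**Figure D5:**
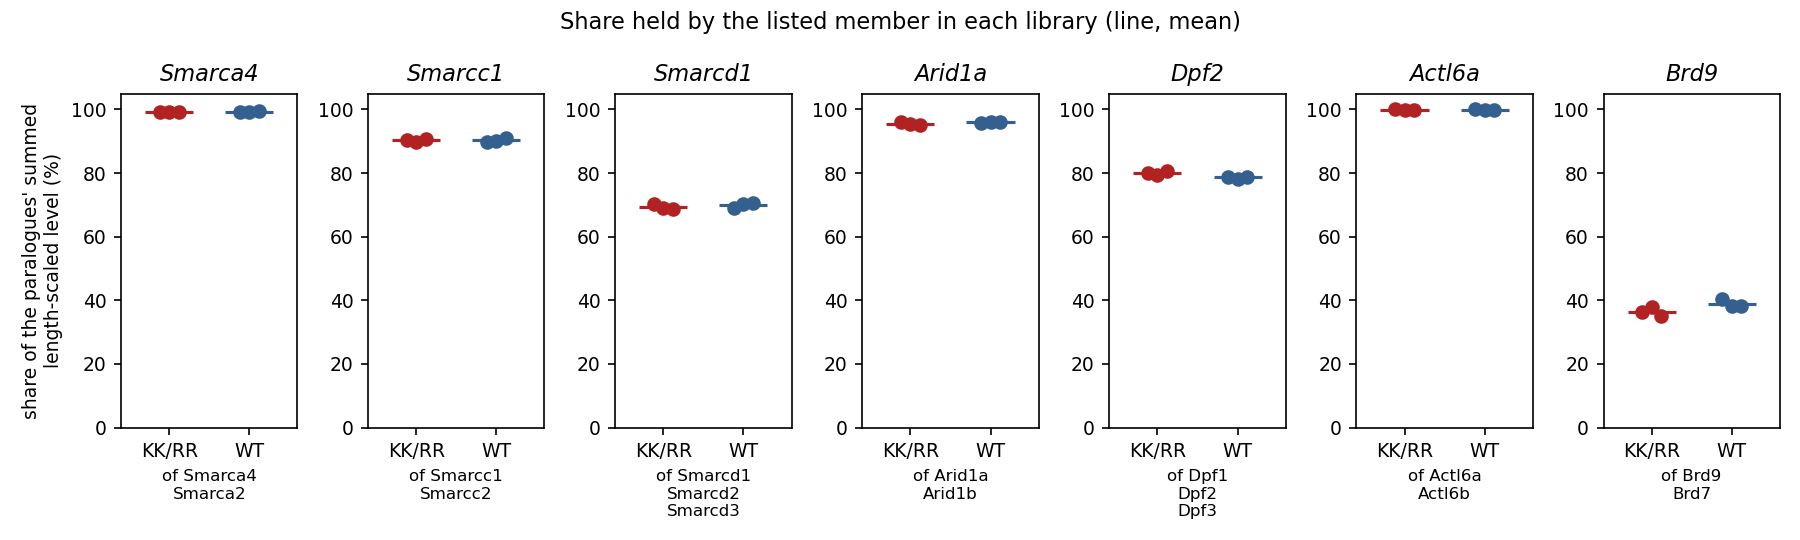
Share of the summed level per kb of each paralogue group held by the listed member, in percent, with 1 point per library and lines at group means, KBP(KK/RR) left of wild-type KBP. Smarca4 and Actl6a hold over 99% in every library, and Brd9 is below Brd7 in both groups.

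The other BAF family subunits gave no call either. Of 21 listed, 19 were tested (Actl6b and Dpf3 were below the filter), and 0 were called higher and 0 lower in edgeR, as in DESeq2, while 6 had an unadjusted p under 0.05 (1 higher, 5 lower), which is 31.6% of them, where 18.6% of all tested genes had one (8.32% higher, 10.3% lower). The median log2 fold change was -0.065, and -0.040 with the length and GC trend removed. The smallest p was that of Gltscr1, a defining subunit of the non-canonical complex, with 19.6 ± 0.839 CPM in KBP(KK/RR) and 22.5 ± 1.35 CPM in wild-type KBP cells (log2 fold change -0.20, edgeR adjusted p = 0.0890). With no filter it was called lower (edgeR adjusted p = 0.0462). Smarcd3, a SMARCD paralogue known from heart muscle, measured 13.6 ± 0.994 CPM in KBP(KK/RR) and 15.7 ± 0.677 CPM in wild-type KBP cells (log2 fold change -0.21, edgeR adjusted p = 0.119). With the trend removed Gltscr1 was at -0.081 and Smarcd3 at -0.19. Arid2, the ARID subunit of PBAF, had 132, 115 and 113 CPM in KBP(KK/RR), against 125, 140.0 and 139 CPM in wild-type KBP cells (log2 fold change -0.17, edgeR adjusted p = 0.163). In edgeR it was called lower without KBP(KK/RR) replicate 4 (adjusted p = 0.00475), without wild-type KBP replicate 1 (0.0379) and with no filter (0.00760). With the trend removed Arid2 was at -0.089 and not called (edgeR adjusted p = 0.120). Of the paralogues, Brd7 had a log2 fold change of 0.098 (edgeR adjusted p = 0.217), Smarcd2 of 0.071, Smarcc2 of 0.0057 and Dpf1 of -0.077.

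Among remodellers outside the family, 11 ISWI genes, 20 CHD and NuRD genes and 17 INO80, SRCAP and TIP60 genes were tested (Srcap was not analysed here). Of these 48, 0 were called higher and 0 lower in edgeR, as in DESeq2, 11 had an unadjusted p under 0.05 (22.9%, where 18.6% of all tested genes did), and the median log2 fold change was -0.020. The NuRD subunit gene Mta3 had 71.1, 68.2 and 68.9 CPM in KBP(KK/RR), against 60.7, 60.8 and 64.5 CPM in wild-type KBP cells. Its groups did not overlap, with a log2 fold change of 0.16 (edgeR adjusted p = 0.0556). It was called higher with upper-quartile factors (edgeR adjusted p = 0.0347), with no filter (0.0283), with the length and GC trend removed (0.0312) and without wild-type KBP replicate 3 (0.0490). Chd4, the NuRD ATPase, measured 801 ± 60.7 CPM in KBP(KK/RR) and 900.5 ± 58.8 CPM in wild-type KBP cells (log2 fold change -0.17, edgeR adjusted p = 0.158). Baz1b and Baz1a had the smallest p of the ISWI genes, with log2 fold changes of -0.12 and -0.12 (edgeR adjusted p 0.102 and 0.191). Ino80 and Actr6 had the smallest of the INO80, SRCAP and TIP60 genes, with -0.11 and 0.13 (edgeR adjusted p 0.232 and 0.251). Chd4 and Baz1b were called lower in edgeR without KBP(KK/RR) replicate 4 (adjusted p 0.00478 and 0.0202), and Chd4 also without wild-type KBP replicate 1 (0.0178) and with no filter (9.57e-04). With the trend removed Chd4 was at -0.11 and Baz1b at -0.078, neither called (edgeR adjusted p 0.157 and 0.123). Chd2, not called in the main test (-0.22, edgeR adjusted p = 0.277), was called lower with the trend removed (-0.13, edgeR adjusted p = 0.0486). It was also called lower in edgeR with no filter (adjusted p = 2.36e-04) and without KBP(KK/RR) replicate 4 (5.80e-04).

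Summed over the 10 subunit genes, the level was 2453, 2381 and 2322 CPM in KBP(KK/RR), against 2401, 2491 and 2619.8 CPM in wild-type KBP cells, and the groups overlapped. Without Arid1a the sums were 1788, 1777 and 1772 CPM in KBP(KK/RR), against 1755, 1752 and 1843 CPM in wild-type KBP cells, with both the lowest and the highest in the wild-type KBP group.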

How the data were processed

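RNA-seq of 6 libraries was used, 3 for KBP(KK/RR) and 3 for wild-type KBP. Per the labels' protocols, RiboZero removed ribosomal RNA and ScriptSeq v2 was the library kit. The submitters' processing notes name bcl2fastq, TopHat, HTSeq and DESeq2, and the builds mm10 and GRCm38, without versions. Which annotation and strand setting served for counting is not given in the sources used here. Values are the authors' deposited raw counts per gene symbol, used as deposited, and a second table of normalized values was not used.

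All genes passing filterByExpr (14340 of 23420) were fitted with edgeR 4.0.16 in R 4.3.3 (TMM factors, robust quasi-likelihood, group as the term, Benjamini-Hochberg adjustment over all tested genes, calls under 0.05). A positive log2 fold change means higher in KBP(KK/RR), and its SE is its size over the square root of F. The procedure was tested on simulated counts. CPM uses TMM-scaled totals. Transcript length and GC content came from GENCODE M21 (23047 of 23420 symbols matched by current or older name), and the trend removal used splines with 5 degrees of freedom per library. Shares were compared with exact permutation tests (SciPy 1.17.1). Replicates differed by more than counting noise (chi-square per degree of freedom 2.70 to 7.17), so none was treated as a duplicate. This cannot show whether they came from separate cultures. Alternatives were DESeq2 1.42.0, voom (limma 3.58.1), other scaling factors and filters, the trend removal, a threshold of 0.1 and each library left out.

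The members, lists and tests were chosen with earlier results of these data known. Named genes are the 10 members, the paralogues in the shares, the 3 other BAF subunits and the 2 genes per remodeller list with the smallest p, the KBP gene and Pou5f1, Nanog and Sox2. The length grouping, the exon-based length and the motifs were chosen after seeing the data. So were Tfcp2l1, Pdgfra, the fibroblast or feeder markers, Trrap, Chd2 and the overlapping genes Mrpl47 and Dhx30.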

Additional observations from a re-analysis of the deposited data

How the results depend on the processing

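Of 130 log2 fold changes of the 10 members under alternatives, 121 kept their direction and their side of the threshold, 7 changed sign and 2 became calls. With the trend on length and GC content removed the value was 0.0082 for Smarca4, -0.0062 for Smarcb1 and 0.036 for Arid1b. With 1 library left out it was -0.024 to 0.042 for Smarcb1, -0.021 to 0.028 for Smarcc1 and -0.32 to -0.18 for Arid1a. For other members, none called in these settings, the value also moved by over 1.5 times with 1 library left out: Smarca4 (-0.10 to -0.033), Smarcd1 (-0.060 to -0.013) and Dpf2 (0.017 to 0.074), their values nearest 0 being without wild-type KBP replicate 3, 3 and 2, and Brd9 (-0.095 to -0.022), nearest 0 without KBP(KK/RR) replicate 6. Arid1a was called with no filter (-0.25) and without wild-type KBP replicate 1. The number of members called lower was thus 1 with no filter and 0 to 1 with a library left out, and 0 were called higher in each setting run.

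Over all genes there were 151 higher and 297 lower. The counts were 235 higher and 205 lower with upper-quartile factors, 70 higher and 238 lower in DESeq2, 78 higher and 192 lower in voom, 284 higher and 682 lower with no filter, 261 higher and 517 lower with the trend removed, and 309 higher and 514 lower at an adjusted p under 0.1. With 1 library left out they were 37 to 198 higher and 85 to 569 lower, with 37 higher and 85 lower without KBP(KK/RR) replicate 6. Of the other BAF subunits 3 were called lower with no filter, 1 at an adjusted p under 0.1 and 0 to 2 with a library left out. Of the other remodeller genes 1 was called higher with upper-quartile factors, with no filter, with the trend removed and at an adjusted p under 0.1 alike, and 0 to 1 with a library left out. Called lower were 3 with no filter, 1 with the trend removed and 0 to 5 with a library left out. The causes were not tested. No paired analysis was possible because the groups share no replicate numbers.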
